A study of Saccharomyces cerevisiae with 32 samples.

Results

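The 40S subunit of the yeast cytosolic ribosome carries 1 copy of each small subunit ribosomal protein, and most of these proteins are encoded by a pair of paralogous genes, called A and B. The small subunit binds the mRNA, holds the decoding centre and joins the 60S subunit to form the translating ribosome. Genes of ribosomal proteins are among the most strongly transcribed in growing yeast. They share the activators Rap1, Fhl1 and Ifh1, and their mRNAs respond together to nutrients through the TORC1 and PKA pathways. The genes described here are the rows of the count table whose standard symbol is RPS followed by a number and an optional A or B, which leaves out the mitochondrial small subunit genes. The rule found 56 of the 7036 counted genes, 8 of them single, such as RPS3, RPS12, RPS13 and RPS31, and 48 in 24 paralog pairs. Of the 56, 36 have an intron, and in 9 pairs both copies encode the same protein. All 56 passed the filter on low counts, and the lowest count of any of them in any library was 445.

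The study compared 3 deletion strains with their parent, BY4742 (MATα his3Δ1 leu2Δ0 lys2Δ0 ura3Δ0), a haploid laboratory strain. They were tma46Δ, eif2aΔ (deletion of YGR054W) and stm1Δ from the Yeast Gene Deletion Collection, in which the open reading frame is replaced by the KanMX cassette. Tma46 is a ribosome-associated protein, eIF2A is a translation initiation factor, and Stm1 is a protein that binds ribosomes and holds inactive ones together. Each strain is 1 isolate of the collection and the culture is the replicate. Each strain had 4 cultures, and each culture gave 1 RNA-Seq library (oligo(dT)-selected mRNA) and 1 Ribo-Seq library (mRNA fragments protected by ribosomes from RNase I, taken from the monosome fraction), 32 libraries in all. Ribosome occupancy (RO) is the Ribo-Seq level relative to the RNA-Seq level. The study's methods give YPD medium for all cultures, whereas the labels name YPD or SD without saying which culture had which. Cycloheximide, which stalls elongating ribosomes, was common to all samples. The labels put it into the medium shortly before harvest, and the methods name it in the lysis and gradient buffers.

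The labels place the cultures in 7 batches. Replicates 1 to 4 of tma46Δ were in batches 1, 2, 3 and 5, those of eif2aΔ in batches 3, 4, 5 and 6, and those of wt in batches 1, 2, 3 and 4. Of the stm1Δ cultures, replicate 1 belongs to batch 6 and the other 3 form batch 7. With batch as a term, the stm1Δ contrast therefore rests on stm1Δ replicate 1 against eif2aΔ replicate 4, the only library that shares its batch. For replicates 2 to 4 of stm1Δ, batch and strain cannot be told apart. The eif2aΔ contrast in turn rests on eif2aΔ replicates 1 to 3. Batch 6 holds only eif2aΔ replicate 4 and stm1Δ replicate 1, so eif2aΔ replicate 4 hardly bears on that contrast. Counts on genes totalled 4215500 to 6717295 per RNA-Seq library and 1457024 to 4122370 per Ribo-Seq library. Each deleted gene was counted at 0 to 2 reads per RNA-Seq library and 0 to 23 reads per Ribo-Seq library of its own strain. LEU2, LYS2 and URA3 had at most 1 count per RNA-Seq library and at most 3 per Ribo-Seq library, whereas HIS3, whose his3Δ1 allele lacks only part of the gene, had 306 to 574 counts per RNA-Seq library. The MATα gene MF(ALPHA)1 had at least 2178 counts in every RNA-Seq library, and the MATa gene MFA1 had at most 6.

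Because the counts hold only reads that map to 1 place, the similarity of the copies bears on every level of a paired gene. The share of all 28-base windows of the coding sequence that occur once in the genome, a length near that of a footprint, was 18.6% for RPS6A and RPS6B, the lowest of all. RPS4A and RPS4B had 36.9%. The median of the 48 paired genes was 87.3%. The pairs with the highest shares were RPS27 with 99.5%, RPS25 with 96.7% and RPS22 with 96.4% for the A copy and 95.6% for the B copy. Of the single genes, 7 had 100% and RPS31, which is made as a fusion with ubiquitin and so repeats sequence of the other ubiquitin genes, had 88.7%. With windows of 50 bases the share rose to 27.6% for the RPS6 pair. In the deposited files, reads that mapped to several places made up 5.98% to 7.11% of reads per RNA-Seq library and 43.4% to 50.8% per Ribo-Seq library, whatever gene they came from, so the reads lost by each RPS gene cannot be counted.

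The last 120 bases of the coding sequence show how the pairs differ, in lower case with the bases that differ between the copies in capitals (build R64, RefSeq genome). RPS6 is the pair with the most shared sequence, RPS27 the one with the least, and RPS14 is the pair whose B copy was called in a strain comparison. RPS6A (chrXVI:377291-377410, minus strand) and RPS6B (chrII:591712-591831, minus strand) differ at 2 of these bases, so that most footprints from this stretch fit both copies.
RPS6A: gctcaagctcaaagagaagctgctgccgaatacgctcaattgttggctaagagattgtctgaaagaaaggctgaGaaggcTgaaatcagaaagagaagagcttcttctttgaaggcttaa
RPS6B: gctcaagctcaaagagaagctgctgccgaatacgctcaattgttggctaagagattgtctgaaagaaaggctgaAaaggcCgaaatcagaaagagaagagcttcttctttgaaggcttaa
RPS27A (chrXI:159093-159212, plus strand) and RPS27B (chrVIII:147871-147990, minus strand) differ at 25 bases.
RPS27A: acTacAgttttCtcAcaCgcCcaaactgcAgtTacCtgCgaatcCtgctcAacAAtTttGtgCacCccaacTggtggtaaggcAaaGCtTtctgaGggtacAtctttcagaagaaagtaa
RPS27B: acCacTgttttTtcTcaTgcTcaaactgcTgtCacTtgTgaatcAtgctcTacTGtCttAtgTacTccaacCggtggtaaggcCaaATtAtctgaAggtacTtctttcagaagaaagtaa
RPS14A (chrIII:177500-177619, minus strand) and RPS14B (chrX:74492-74611, plus strand) differ at 6 bases, with 76.7% of the windows of each copy found once.
RPS14A: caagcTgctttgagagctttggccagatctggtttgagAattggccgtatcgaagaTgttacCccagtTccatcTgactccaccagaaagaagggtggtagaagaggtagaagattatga
RPS14B: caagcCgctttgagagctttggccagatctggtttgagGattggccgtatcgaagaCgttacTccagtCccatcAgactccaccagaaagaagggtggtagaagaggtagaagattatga

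The RPS genes together took a large share of the counts in all strains. In RNA-Seq they held 8.97% ± 0.0886 of gene counts in tma46Δ, 8.84% ± 0.747 in eif2aΔ, 8.04% ± 0.315 in stm1Δ and 8.73% ± 0.167 in wt (SD, n = 4 each). Replicate 4 of eif2aΔ stood at 9.93%, the highest of the 16 libraries. The stm1Δ libraries lay at 7.71% to 8.47%, all under the lowest wt library at 8.58%. Replicate 2 of eif2aΔ, at 8.24%, lay within the stm1Δ range. Replicates 1 and 3 of eif2aΔ, at 8.58% and 8.62%, lay next to the lowest wt library. In Ribo-Seq the shares were 7.86% ± 0.281 in tma46Δ, 7.78% ± 0.571 in eif2aΔ, 7.91% ± 0.545 in stm1Δ and 7.76% ± 0.107 in wt, and the ranges of the 4 strains overlapped.

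Levels of single members in wt are given as CPM (library-scaled counts, by TMM) per kilobase of uniquely mappable sequence (28-base windows), so that genes can be set side by side. By this measure the RNA-Seq levels had a median of 4901 and ran over a wide range. RPS31 was highest at 14283 ± 599, followed by RPS12, a protein of the beak of the head, at 8893 ± 572 and RPS24A at 8429 ± 691 (SD, n = 4 each). RPS12 and RPS24A lay within 1 SD of each other. With 50-base windows RPS24A was 10th at 6293 ± 516, while RPS31 at 13343 ± 559 and RPS12 at 9404 ± 604 were again the highest. RPS9A was lowest at 546 ± 33.8, below RPS22B at 1066 ± 14.0 and RPS14B at 1154 ± 126. RPS22B and RPS14B did not differ beyond their spread. The single genes had a median of 6526 and the paired genes 4626 per gene copy. Genes with an intron had a median of 4754 and those without 5291. In Ribo-Seq RPS31 reached 9041 ± 570 CPM per unique kilobase and RPS9A 607 ± 42.0.

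The copies of a pair were used unequally, and the extreme pairs were the same in both assays. In wt RNA-Seq the A copy took from 8.06% of the pair's counts for RPS9 to 86.0% for RPS14, and it held over 50% in 18 of 24 pairs. RPS9 is a protein of the small subunit body that lies near the mRNA entry channel, and RPS14 lies in the platform near the mRNA exit. Only RPS9, RPS14 and RPS22 were beyond a ratio of 3 to 1 in wt RNA-Seq. In wt Ribo-Seq it held over 50% in 14 pairs, with RPS9 at 9.59% and RPS14 at 85.5% at the ends. The SD over the 4 wt cultures was at most 1.67 percentage points in RNA-Seq and 2.07 in Ribo-Seq. These shares count uniquely mapped reads only.

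**Figure D1:**
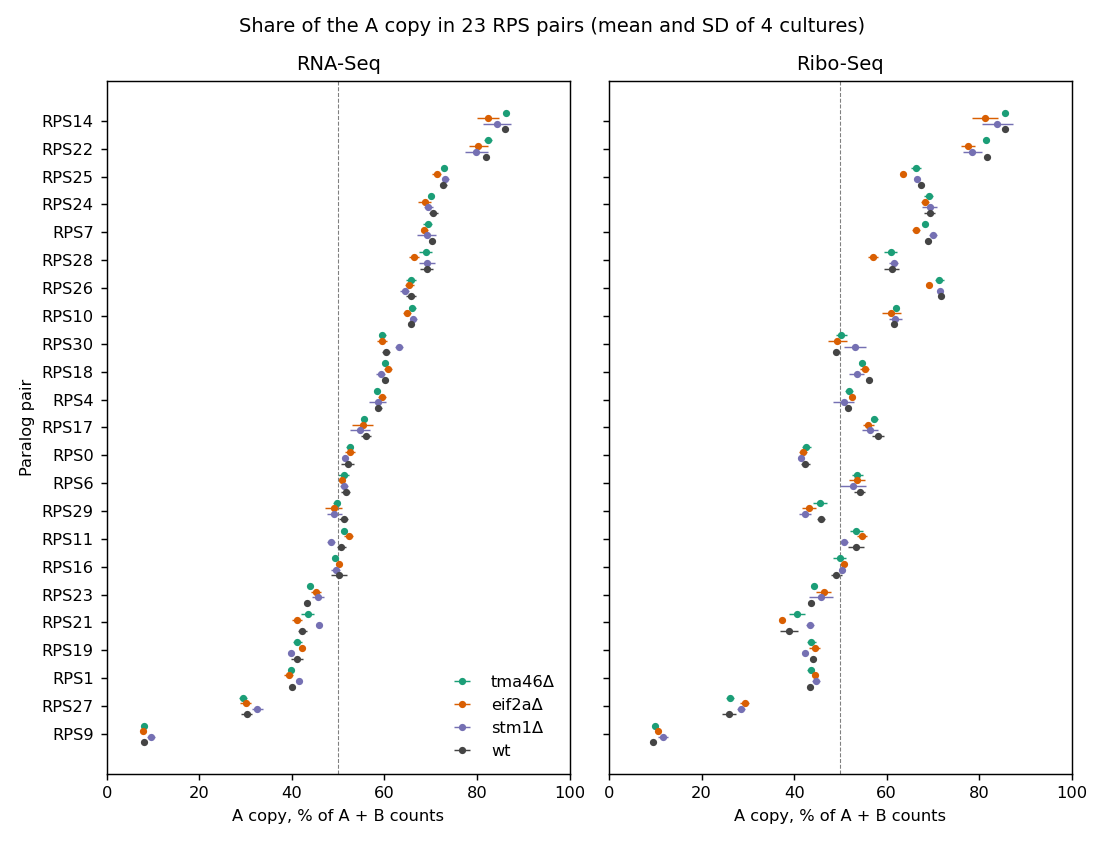
Share of the A copy in the counts of 23 of the 24 RPS pairs (x axis, percent of A plus B counts) in RNA-Seq and Ribo-Seq, ordered by the wt RNA-Seq share. Points are means of 4 cultures and bars their SD. In wt RNA-Seq RPS9 sits at 8.06% and RPS14 at 86.0%, and the strains differ by at most 3.74 percentage points from wt in RNA-Seq and 4.50 in Ribo-Seq.

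Within wt, Ribo-Seq was compared with RNA-Seq of the same 4 cultures to ask which RPS mRNAs had more or fewer footprints than their mRNA level would give. RO was higher for 34 of the 56 members, where 34.6% of all tested genes were higher, and lower for 11, where 39.9% of all genes were lower (edgeR, FDR < 0.05). The highest were RPS29B with a log2 RO of 1.15 (standard error 0.06, FDR 6.40e-12), RPS13 with 1.13 and RPS27B with 1.09. Rps29 and Rps27 are small zinc-binding proteins, and Rps13 is a protein of the body that binds early in assembly. Others near the top were RPS7B at 0.90, RPS22B at 0.86, RPS22A and RPS29A both at 0.84, and RPS7A at 0.81. The zero of this scale comes from TMM over both assays, and a gene with the same CPM in each assay lies at 0.45. Members called higher with a log2 RO under 0.45, such as RPS2 at 0.27 and RPS17B at 0.13, thus had fewer CPM in Ribo-Seq than in RNA-Seq.

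The lowest were RPS6B with a log2 RO of -1.11 (standard error 0.06, FDR 2.22e-11) and RPS6A with -0.96. Rps6 is the protein phosphorylated downstream of TORC1. RPS4A at -0.35, RPS26B at -0.34, RPS12 at -0.29, RPS24A at -0.22 and RPS31 at -0.21 were also called lower. Of the 8 members with under 50% unique 28-base windows, which include both copies of RPS4 and RPS6, 6 were lower and 0 higher, with a median log2 RO of -0.29. Of the other 48, 34 were higher and 5 lower, with a median of 0.29. Across the 56 members, log2 RO correlated with the share of unique windows at r = 0.70 (Pearson) and rho = 0.64 (Spearman), and with coding length at r = -0.34 and rho = -0.31. These are descriptions across genes of the same 8 libraries, in which the copies of a pair have nearly the same share of unique windows. Among the 29 members with at least 90% unique windows the values were 0.28 and 0.24 for unique windows and -0.16 and -0.17 for length. The part of lost footprints in the RO of each gene was not tested.

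**Figure D2:**
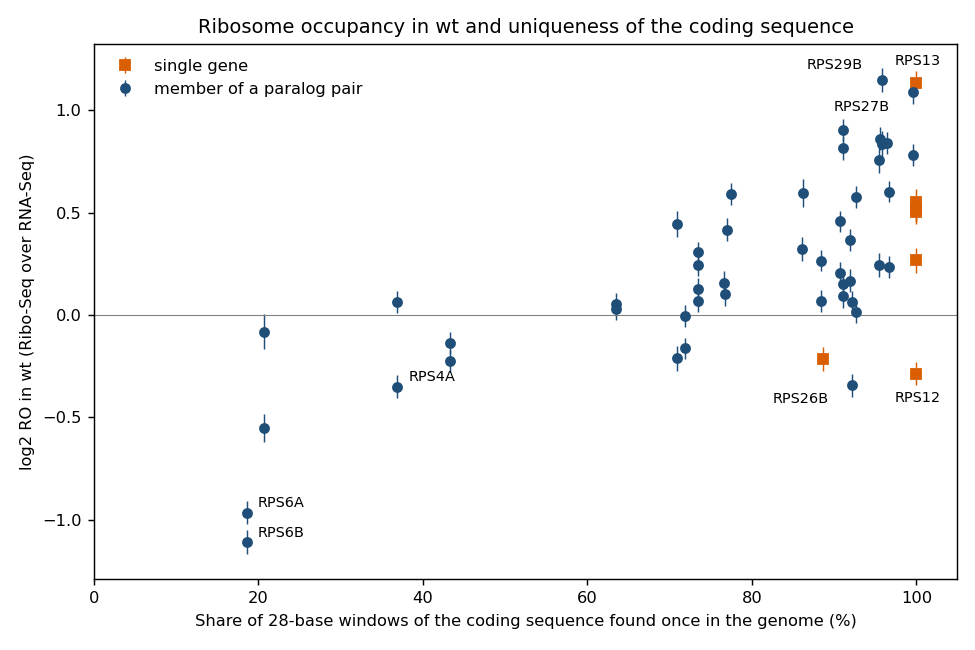
Log2 RO in wt (y axis, Ribo-Seq over RNA-Seq, bars are standard errors) against the share of 28-base windows of the coding sequence that occur once in the genome (x axis, percent), for 48 paired genes (circles) and 8 single genes (squares). RPS6A and RPS6B sit lowest, at 18.6% unique windows and -0.96 and -1.11, and RPS29B, RPS13 and RPS27B highest.

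In tma46Δ the RPS genes were not called changed in any comparison. In RNA-Seq 0 of 56 passed FDR < 0.05 (0.0216% of all genes did, TMA46 itself) by edgeR and by DESeq2, and 0 were at an unadjusted p under 0.05. The log2 fold changes ran over -0.04 for RPS10B to 0.12 for RPS29B, with a median of 0.05 where the median of all genes was -0.01, and 51 of 56 were above 0. RPS6A at -0.03 and RPS23B at -0.01 were the next lowest, and RPS24B at 0.11 and RPS7B at 0.10 the next highest. In the 3 batches that hold both strains, the median of the members differed by 0.03, 0.09 and 0.11 on the log2 scale, with 38, 53 and 49 of 56 members higher in tma46Δ. In Ribo-Seq 0 of 56 passed (0.0216% of all genes) by edgeR and by DESeq2, with 0 at an unadjusted p under 0.05. In the same 3 batches the median of the members was -0.01, -0.02 and -0.03, with 32, 38 and 36 members lower in tma46Δ. The fitted median was 0.02, and -0.03 without tma46Δ replicate 4. The values ran from RPS4B at -0.07, RPS26A at -0.06 and RPS4A at -0.06 up to RPS27A, RPS7B and RPS25B, all at 0.10. For RO 0 of 56 passed (0% of all genes), with 0 at an unadjusted p under 0.05, and the median was -0.02. RPS4B was lowest at -0.16, followed by RPS4A at -0.12 and RPS26A at -0.10, and RPS16A was highest at 0.08, followed by RPS10B and RPS22B, both at 0.07. A member's standard error had a median of 0.09 for mRNA, 0.08 for footprints and 0.12 for RO.

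In eif2aΔ, 1 of 56 RPS genes passed the test in Ribo-Seq, where 1.84% of all genes did, so the count is at the level of the background. The gene was RPS14B, the minor copy of its pair, which rose. In RNA-Seq its level was 422, 468, 489 and 459 CPM in the 4 eif2aΔ libraries, against 339, 354, 298 and 389 CPM in wt. In Ribo-Seq it was 332, 380, 406 and 354 CPM in eif2aΔ, against 272, 281, 271 and 304 CPM in wt. In both assays every eif2aΔ library lay above every wt library, and the tma46Δ libraries (345 to 360 CPM of mRNA, 253 to 316 CPM of footprints) were under all of them. In stm1Δ RPS14B had 271, 318, 345 and 330 CPM of mRNA, under every eif2aΔ library, and 228, 325, 330 and 362 CPM of footprints, of which replicate 4 lay within the eif2aΔ range. The log2 fold change in Ribo-Seq was 0.34 (standard error 0.08, FDR 0.0466 by edgeR). In RNA-Seq it was 0.41 (standard error 0.08, FDR 0.0518), so that 0 of 56 passed, where 0.454% of all genes did, with 4 at an unadjusted p under 0.05 (13.7% of all genes). DESeq2 called RPS14B in RNA-Seq, where it called 1.36% of all genes, and 0 members in Ribo-Seq. Without 1 library at a time, the Ribo-Seq FDR ran over 0.00887 to 0.326 and the call held in 4 of 16 fits, while the log2 fold change stayed at 0.32 to 0.38. The 4 fits were those without eif2aΔ replicate 4 or without stm1Δ replicate 1, 2 or 4. With the batch term these libraries hardly bear on the eif2aΔ log2 fold change, so these calls are no test of whether it holds. The call was lost in every fit without a wt, tma46Δ or other eif2aΔ library. In RNA-Seq leaving out 1 library at a time gave 0.35 to 0.49, and 2 of 16 fits passed. They were those without stm1Δ replicate 2 or 4, for which the same limit holds.

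The difference was present in each batch that eif2aΔ shares with wt. RPS14B was higher in eif2aΔ by 0.50 in batch 3 and 0.27 in batch 4 in RNA-Seq, and by 0.29 and 0.32 in Ribo-Seq, on the log2 scale. The wt library of batch 3 had the lowest RPS14B mRNA of wt, 298 CPM. Against tma46Δ, RPS14B mRNA was higher in eif2aΔ by 0.29 in batch 3 and 0.48 in batch 5. Its partner RPS14A, the major copy by counts, was not called. RPS14A had 2156, 1888, 2061 and 2629 CPM in RNA-Seq of eif2aΔ, against 2204, 2201, 1848 and 2241 CPM in wt, and the groups overlapped. It changed by -0.02 on the log2 scale in RNA-Seq (standard error 0.14). The Ribo-Seq value was -0.12 (standard error 0.10, FDR 0.610). Within batches, RPS14A mRNA differed by 0.22 in batch 3 and -0.25 in batch 4, eif2aΔ minus wt. The A copy thus held 82.4% ± 2.35 of RPS14 counts in eif2aΔ and 86.0% ± 0.604 in wt in RNA-Seq, and 81.2% ± 2.88 against 85.5% ± 0.669 in Ribo-Seq (SD, n = 4 each). With the counts of each pair summed, RPS14 was not among the features called. The RO of RPS14B changed by -0.06 (standard error 0.11). RPS14B is known for autoregulation, in which Rps14 protein binds the start of its pre-mRNA and blocks splicing of its intron. The first 120 bases from the start codon are shown with the first coding exon in capitals and the start of the intron in lower case, since the copies share little here although their proteins are nearly the same. RPS14A (chrIII:178101-178220, minus strand) has 7 bases in its first coding exon and RPS14B (chrX:73787-73906, plus strand) has 10.
RPS14A: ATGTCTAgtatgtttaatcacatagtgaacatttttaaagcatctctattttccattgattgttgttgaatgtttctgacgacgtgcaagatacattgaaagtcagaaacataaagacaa
RPS14B: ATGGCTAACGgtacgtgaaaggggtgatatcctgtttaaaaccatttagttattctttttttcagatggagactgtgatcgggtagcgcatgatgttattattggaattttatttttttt
The counts are of exon reads, and splicing of this intron was not measured.

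**Figure D3:**
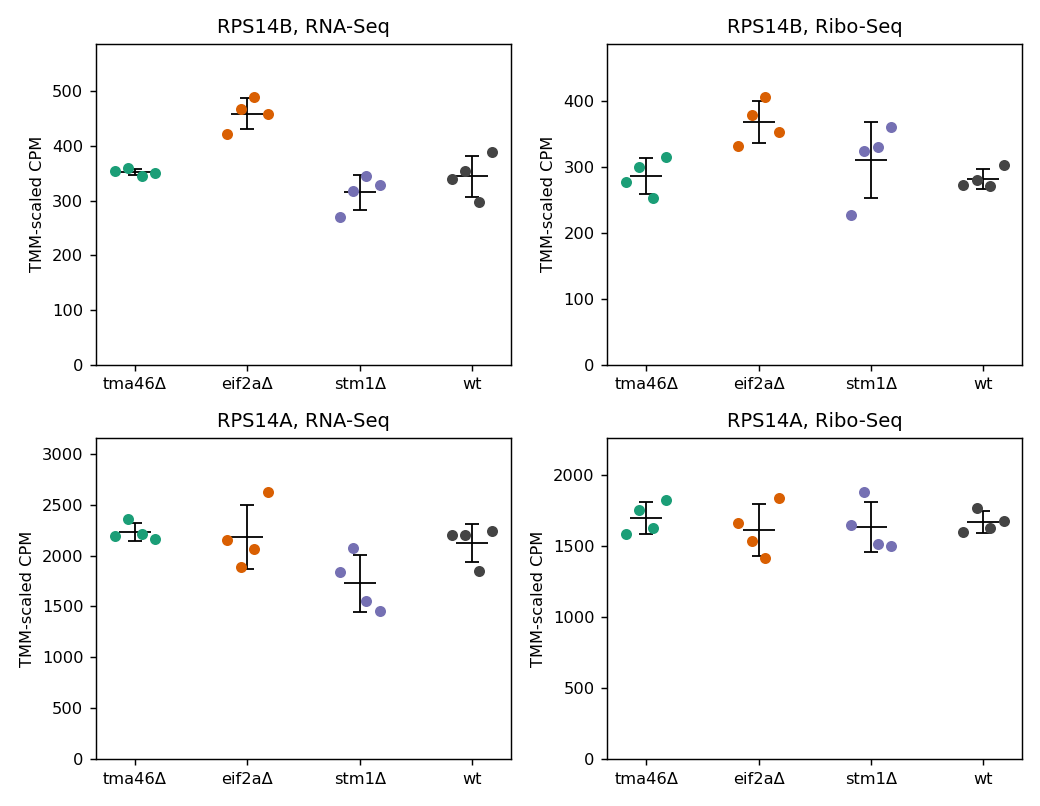
TMM-scaled CPM (y axis) of RPS14B and RPS14A in RNA-Seq and Ribo-Seq, by strain. Points are the 4 libraries, horizontal lines their mean and bars the SD. For RPS14B the 4 eif2aΔ libraries sit at 422 to 489 CPM for mRNA and 332 to 406 CPM for footprints, above every wt and tma46Δ library, and stm1Δ replicate 4 reaches 362 CPM of footprints. RPS14A overlaps between strains.

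The other members had mostly negative values in eif2aΔ, and 0 of them passed the test. In RNA-Seq the median log2 fold change of the 56 was -0.08, where that of all genes was 0.00, and 49 were below 0. RPS28A was lowest at -0.23 (standard error 0.09, FDR 0.304), followed by RPS29A and RPS30A, both at -0.21. After RPS14B the highest were RPS24B at 0.09 and RPS13 at 0.07. In Ribo-Seq the median was -0.11, 49 were below 0 and 7 were at an unadjusted p under 0.05 (14.7% of all genes). RPS21A was lowest at -0.23 (FDR 0.238), followed by RPS28A at -0.22. RPS22B, the minor copy of a pair whose product lies in the body, had 623, 624, 552 and 639 CPM in eif2aΔ, against 527, 451, 520 and 497 CPM in wt. Every eif2aΔ library lay above every wt library, but the log2 fold change of 0.24 (standard error 0.08) did not pass (FDR 0.164). RPS7B had 0.11. Across batches the direction of the whole group was not steady. In RNA-Seq the median of the members was 0.03 in batch 3 and -0.18 in batch 4, and in Ribo-Seq 0.01 and -0.07, eif2aΔ minus wt. Replicate 4 of eif2aΔ lay the other way, with a median of 0.24 above the wt mean in RNA-Seq and 0.13 in Ribo-Seq. Without the batch term the median log2 fold change of the 56 was -0.0009 in RNA-Seq and -0.03 in Ribo-Seq. For RO 0 of 56 passed (0.0432% of all genes), by edgeR and by DESeq2, with 0 at an unadjusted p under 0.05. The median was -0.02, with RPS0A at -0.17, RPS26A at -0.13 and RPS27B at -0.12 at the low end and RPS22B at 0.19, RPS27A at 0.10 and RPS1A at 0.09 at the high end.

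**Figure D4:**
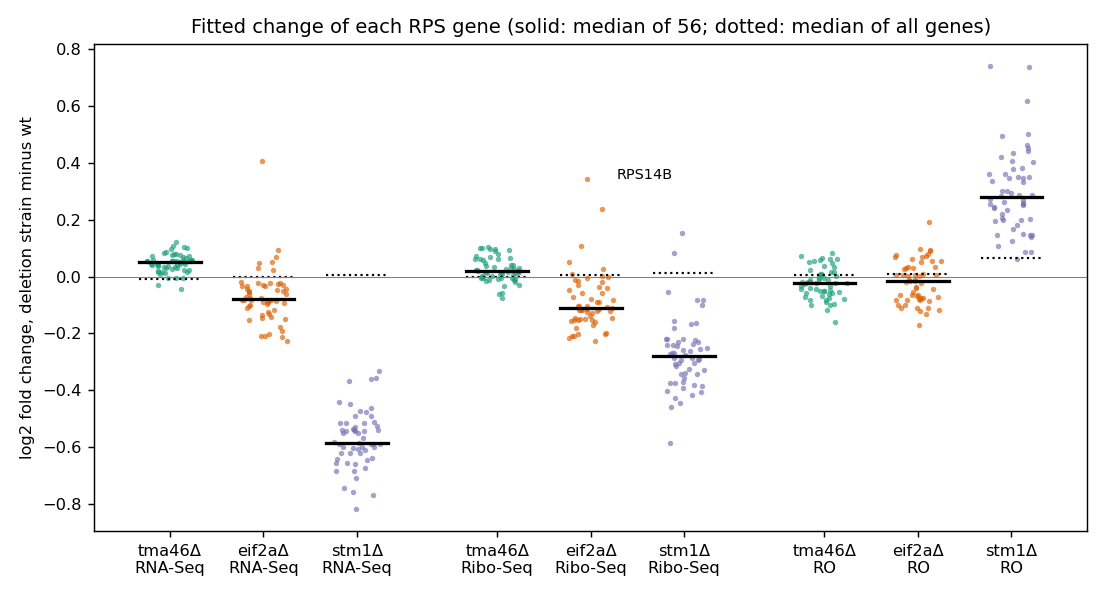
Fitted log2 fold change (y axis, deletion strain minus wt) of each of the 56 RPS genes in the 3 deletion strains, in RNA-Seq, Ribo-Seq and RO. Solid lines are the median of the 56, dotted lines that of all 4625 tested genes. RPS14B, labelled at 0.34, is the 1 member with FDR < 0.05, and in stm1Δ all 56 lie below 0 in RNA-Seq and above 0 for RO.

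In stm1Δ all 56 RPS genes had a negative log2 fold change in RNA-Seq, but 0 passed FDR < 0.05 (0.0649% of all genes did). The median was -0.58, against 0.01 for all genes, where 49.5% of genes were below 0. The values ran from -0.82 for RPS30B (standard error 0.21, FDR 0.0818) and -0.77 for RPS6A (standard error 0.18, FDR 0.0727) to -0.36 for RPS9A, -0.36 for RPS14B and -0.33 for RPS21A. At an unadjusted p under 0.05 there were 53 of 56, where 12.8% of all genes were lower at that level. DESeq2 with the same terms called 36 members, all lower, where it called 4.3% of all genes lower. Single and paired genes had medians of -0.58 for the 8 single genes, -0.59 for the A copies and -0.55 for the B copies. Genes with an intron had a median of -0.59 and those without -0.57, and genes with at least 90% unique windows and the rest both had -0.58. In these bulk samples, fewer mRNAs per cell and a changed makeup of the other mRNAs cannot be told apart.

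The size of this difference changed with the libraries it is set against. In batch 6 the median of the members was 0.51 lower on the log2 scale in stm1Δ replicate 1 than in eif2aΔ replicate 4, and all 56 were lower. That eif2aΔ library had the highest RPS levels of all, with a median of 0.24 above the wt mean and 0 of 56 members below it. Relative to the wt mean, the stm1Δ libraries had medians of -0.26 for replicate 1, -0.07 for replicate 2, -0.32 for replicate 3 and -0.26 for replicate 4. The wt libraries themselves lay at 0.01, 0.02, -0.06 and 0.05, so replicate 2 of stm1Δ lay next to wt replicate 3. Without a batch term the median log2 fold change was -0.23, and 11 members passed, all lower, where 6.34% of all genes were called lower. Among them were RPS3, RPS4A, RPS6A, RPS6B, RPS11A and RPS13. In that fit RPS21A had a log2 fold change of 0.02. Without stm1Δ replicate 2 and with the batch term, 51 members passed as lower, where 8.61% of all genes did. The median was again -0.58, but leaving out replicate 2 could hardly move it. Replicates 2, 3 and 4 of stm1Δ share their batch with no other strain. With the batch term they therefore bear on the spread and hardly on the stm1Δ log2 fold change. The standard errors were smaller, as for RPS6A with 0.15 in place of 0.18. The 51 calls thus reflect a smaller spread and are no test of whether the difference holds. Without eif2aΔ replicate 4, or without stm1Δ replicate 1, the batch fit gives no stm1Δ value.

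RPS6A is among the members with the largest fitted difference. It had 738, 861, 731 and 779 CPM in RNA-Seq of stm1Δ, against 974, 1002, 908 and 1011 CPM in wt. Every stm1Δ library lay below every wt library. In Ribo-Seq RPS6A had 352, 369, 387 and 320 CPM in stm1Δ, against 353, 410, 357 and 346 CPM in wt, and the groups overlapped. Not all members lay lower in plain RNA-Seq levels, and 3 of 56 had a higher mean in stm1Δ. They were RPS21A (stm1Δ 841 CPM, wt 829 CPM), RPS29B (stm1Δ 539 CPM, wt 534 CPM) and RPS30A (stm1Δ 861 CPM, wt 849 CPM).

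**Figure D5:**
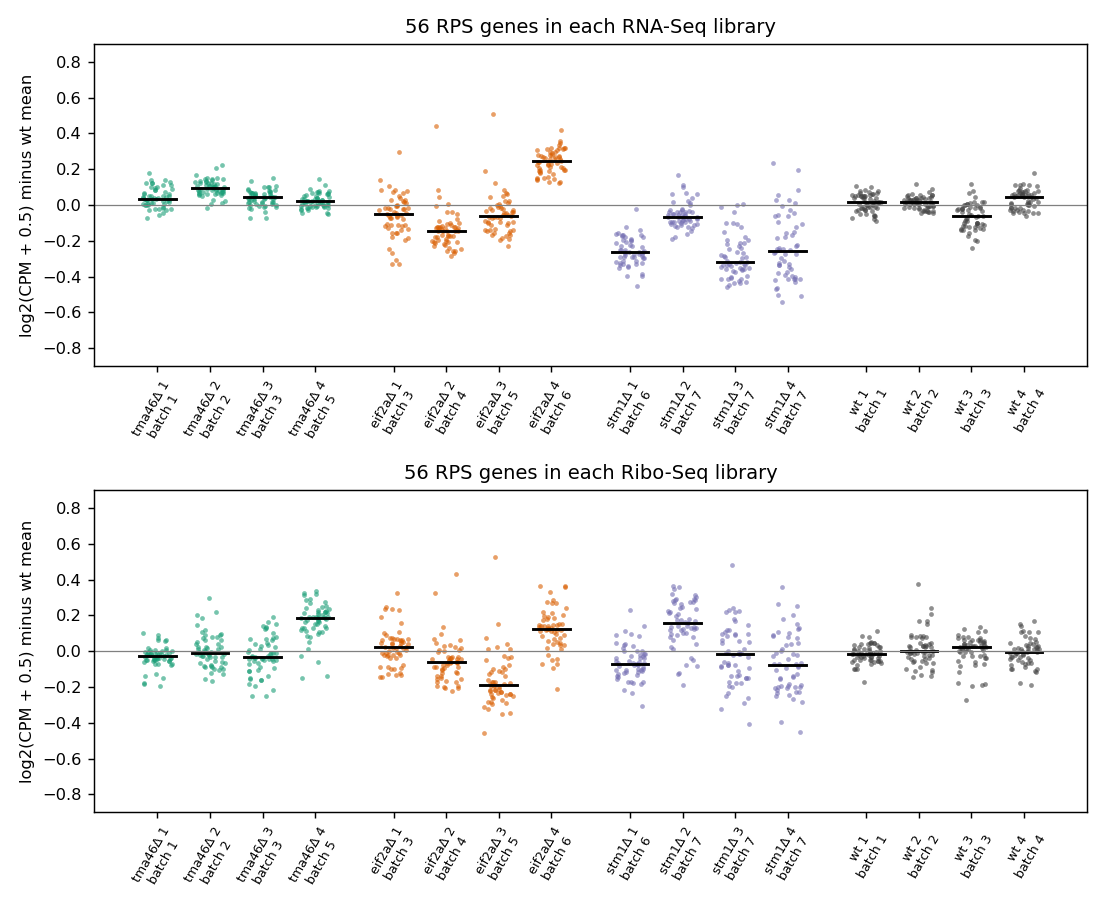
Level of each of the 56 RPS genes in every library, as log2(CPM + 0.5) minus the mean of the 4 wt libraries (y axis), with RNA-Seq above and Ribo-Seq below. Points are genes and black lines the median of the 56. In RNA-Seq the medians of the stm1Δ libraries lie at -0.07 to -0.32 and eif2aΔ replicate 4 at 0.24, while in Ribo-Seq the stm1Δ medians lie at -0.08 to 0.16.

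Footprints on RPS genes in stm1Δ differed less from wt than their mRNA did, and this difference, tested as RO, was not called. In Ribo-Seq 0 of 56 passed (0.411% of all genes), by edgeR and by DESeq2, with 8 at an unadjusted p under 0.05 (15.6% of all genes), and the median was -0.28 with 54 members below 0. RPS11A was lowest at -0.59 (standard error 0.18, FDR 0.157), and RPS17A had -0.44. RPS30A at 0.15, RPS29B at 0.08 and RPS28A at -0.05 were highest. Without the batch term the median was 0.00, and the members of eif2aΔ replicate 4 had a median of 0.13 above the wt mean. In batch 6 the median was 0.19 lower in stm1Δ than in eif2aΔ, and 51 of 56 members were lower.

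For RO all 56 members had a positive fitted change in stm1Δ, where 42.8% of all genes were below 0. By edgeR and by DESeq2 0 passed (0% of all genes), with 4 at an unadjusted p under 0.05 (5.41% of all genes). The median was 0.28, against 0.07 for all genes. RPS30A and RPS30B were highest, both at 0.74 (standard errors 0.27 and 0.30, FDR 0.851 each), followed by RPS29B at 0.62. Rps30 lies on the subunit interface side near the decoding region. The lowest were RPS14B at 0.06, RPS11B at 0.09 and RPS18B at 0.09. Each culture gave a Ribo-Seq and an RNA-Seq library, and within cultures the median Ribo-Seq level relative to RNA-Seq was 0.19, 0.21, 0.26 and 0.16 above the wt mean in stm1Δ, against -0.02, -0.02, 0.08 and -0.03 in wt, on the log2 scale. All 4 stm1Δ cultures lay above all 4 wt cultures. The tma46Δ cultures stood at -0.07, -0.11, -0.07 and 0.15, the last of them close under stm1Δ replicate 4. Those of eif2aΔ stood at 0.07, 0.08, -0.12 and -0.13. The last of these, replicate 4, was the lowest of all cultures. With the batch terms the fitted stm1Δ change is set against that culture. With the culture as a block and the batch terms kept, the median was 0.28, the median standard error of a member was 0.21 in place of 0.27, and 0 passed. With the culture as a block and no batch term, a fit chosen after seeing the data, the median was 0.21 and the median standard error 0.09. In that fit 39 members were at an unadjusted p under 0.05, where 14.4% of all genes were, and 0 passed (0.238% of all genes), with a lowest FDR of 0.0722 for RPS24A. That fit cannot tell strain from batch.

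Among pairs, the A share of RPS21 moved most in stm1Δ. RPS21A held 46.0% ± 0.636 of the pair's RNA-Seq counts in stm1Δ and 42.2% ± 0.956 in wt, and 43.4% ± 0.870 against 38.9% ± 1.87 in Ribo-Seq (SD, n = 4 each). The stm1Δ libraries lay above the wt libraries in both assays. RPS21A had 817, 930, 773 and 846 CPM in RNA-Seq of stm1Δ, against 859, 857, 767 and 835 CPM in wt, which overlap, while RPS21B had 945, 1118, 928 and 968 CPM in stm1Δ, against 1122, 1164, 1056 and 1199 CPM in wt. The RNA-Seq log2 fold changes were -0.33 for RPS21A (standard error 0.17) and -0.54 for RPS21B (standard error 0.18, FDR 0.121). In tma46Δ no pair moved by over 2 percentage points in either assay. In eif2aΔ 3 pairs did so for mRNA and 10 for footprints, and in stm1Δ 7 and 9. The SD of a share over the wt cultures reached 1.67 points for mRNA and 2.07 for footprints. These shares carry no batch term. The strains share different numbers of batches with wt, and stm1Δ shares none, so strain and batch cannot be told apart in these counts.

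Other genes tied to the small subunit were looked at as lists. ASC1, which encodes the RACK1-like protein on the head of the 40S subunit, had RNA-Seq log2 fold changes of 0.10 in tma46Δ, -0.09 in eif2aΔ and -0.46 in stm1Δ, and 0 of its 9 comparisons passed by edgeR, with 1 at an unadjusted p under 0.05 (stm1Δ Ribo-Seq, -0.41). All 18 listed 40S assembly factors were tested and 0 passed in any comparison. In stm1Δ RNA-Seq 16 of 18 were below 0 with a median of -0.35, where 49.5% of all genes were below 0, and 8 were at an unadjusted p under 0.05, where 21.8% of all genes were. The lowest was DIM1, the dimethylase of 18S rRNA, at -0.84 (standard error 0.17, FDR 0.0653), and RIO2 and EMG1 had -0.67 and -0.62. In stm1Δ Ribo-Seq 15 of 18 were below 0, with a median of -0.36 and NOB1, the endonuclease that makes the 3′ end of 18S rRNA, lowest at -0.71. Of the 10 listed regulators of ribosomal protein genes 0 passed in any comparison. In stm1Δ RNA-Seq CRF1, the gene of a corepressor, was highest with a log2 fold change of 1.29 (standard error 0.54, FDR 0.189), followed by FHL1 with 0.88 (standard error 0.25, FDR 0.0869) and SFP1 with 0.59 (standard error 0.19, FDR 0.113). The median of the list was 0.10, and 4 of 10 were below 0, with HMO1 lowest at -0.28. At an unadjusted p under 0.05 there were 3 of 10, where 21.8% of all genes were. In Ribo-Seq FHL1 had -0.30 and CRF1 -0.41, and the RO of FHL1 had -1.19 (FDR 0.788).

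A Rap1-type motif, ACCCNNACA, was searched on both strands in the 450 bases before the start codon. It was found for 14 of 56 RPS genes (25%) and for 4.87% of 5915 coding genes. RPS11B, RPS16A and RPS16B had 2 matches each. A match is a description of the letters, and members without one can hold other forms of the site. Stretches of 80 bases from these 3 genes are shown with matches in capitals. They are from RPS11B (chrII:332499-332578, plus strand), RPS16A (chrXIII:551585-551664, plus strand, with the nearer of its matches) and RPS16B (chrIV:308139-308218, minus strand, with 1 match on each strand).
RPS11B: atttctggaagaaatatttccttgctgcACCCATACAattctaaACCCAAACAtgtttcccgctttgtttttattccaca
RPS16A: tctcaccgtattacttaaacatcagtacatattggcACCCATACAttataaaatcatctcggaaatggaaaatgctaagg
RPS16B: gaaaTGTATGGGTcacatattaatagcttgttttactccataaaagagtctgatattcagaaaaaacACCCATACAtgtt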

How the data were processed

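RNA-Seq and Ribo-Seq libraries of 4 strains were analysed as deposited, with strain, replicate and batch from the sample labels. By the study's methods and the submitters' processing notes, reads were trimmed with cutadapt 2.10, Ribo-Seq duplicates were removed with seqkit, rRNA reads were removed with Bowtie2 1.2.3, and the rest were mapped and counted with STAR 2.7.9a on R64. The authors deposited raw counts per gene of uniquely mapped sense-strand reads, neither normalized nor batch-corrected. Removal of duplicates can lower Ribo-Seq counts of strongly expressed genes.

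Symbols, coding sequences and genome sequence came from RefSeq (R64), where 5956 of 7036 identifiers matched. The filter asked for 10 CPM or more in 4 or more libraries of each assay, which 4625 genes met. Counts were tested in R 4.3.3 with edgeR 4.0.16 (glmQLFit, glmQLFTest, TMM, terms for batch and strain, all strains in the fit). RO was the interaction of strain and assay over 32 libraries, with batch terms per assay and no term for the culture, which was added as an alternative. RO within wt had the culture as a block. FDR is Benjamini-Hochberg over all genes tested, at 0.05. Printed CPM are TMM-scaled per assay, and same-batch and per-library differences use log2(CPM + 0.5). Standard errors are the log2 fold change over the square root of F. The script was tested on simulated data. Alternatives were ComBat-seq (sva 3.50.0), DESeq2 1.42.0, no batch term, other scalings and filters, summed paralogs, unstranded counts and leaving out 1 culture at a time.

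Printed per library are members with FDR under 0.05 and the pairs whose A share moved most. Named are the 3 highest and lowest members by change and by level, less some members that are not reported here. RPS22B and RPS6A were added per library after their values were seen. Members and lists were chosen with earlier results of these data known. Replicate libraries differed by more than counting noise (chi-square per degree of freedom 2.65 to 22.9 over 48 pairs). Nothing says that cultures came from separate colonies, so p-values measure the spread between these cultures.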

Additional observations from a re-analysis of the deposited data

Results flagged for a closer look

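Of 88 groups of 4 libraries examined (the summed RPS share and 10 members in each strain and assay), 3 had 1 library far from the other 3 by Dixon's ratio (its gap to the nearest library over the group's range), where chance gives about 1 in 20. RPS14A RNA-Seq in wt had a ratio of 0.896, with replicate 3 at 1848 CPM and the others at 2201 to 2241. RPS6A Ribo-Seq in wt had 0.837, with replicate 2 at 410 CPM and the others at 346 to 357. RPS6B Ribo-Seq in stm1Δ had 0.883, with a range of 284 to 337 CPM.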

How the results depend on the processing

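Settings that changed a count of called RPS genes were these. In eif2aΔ RNA-Seq, with 0 called, ComBat-seq correction gave 11 (20.7% of all genes), and DESeq2, no batch term, no filter, a mean of 50 CPM and wt with eif2aΔ only gave 1 each, RPS14B (0.324% to 4.43% of all genes). In eif2aΔ Ribo-Seq, with 1 called, ComBat-seq gave 6 (17.8% of all genes) and wt with eif2aΔ only gave 2 (5.23%), while no batch term, no filter, DESeq2 and summed paralogs gave 0. In stm1Δ RNA-Seq, with 0 called, the calls gained were all lower. ComBat-seq gave 56 (33.8% of all genes were lower in that fit), DESeq2 36 (4.3%), no batch term 11 (6.34%) and no filter 1 (1%). Wt with stm1Δ only gave 3 (3.65%), in a fit that can hold no batch term because these strains share no batch. Where 0 were called, ComBat-seq gave 44 in stm1Δ Ribo-Seq (55.4% of all genes), 47 in stm1Δ RO (47.4%) and 1 in eif2aΔ RO (1.45%), and wt with tma46Δ only gave 1 in tma46Δ Ribo-Seq, RPS4B (1.64%). Within wt, 45 were called, and summing paralogs gave 26 of 32 features, because fewer features were tested. The causes of the other changes were not tested. Cultures were also left out 1 at a time, each with both its libraries. In those fits eif2aΔ RNA-Seq and Ribo-Seq gave 0 to 1 each, stm1Δ RNA-Seq 0 to 51 (51 without stm1Δ replicate 2), stm1Δ Ribo-Seq 0 to 1 and wt RO 41 to 46. The stm1Δ median in RNA-Seq ran over -0.59 to -0.22 across the other settings and in Ribo-Seq over -0.29 to 0.00. Scaling by library size alone gave -0.35 and -0.13, with the median of all genes at 0.24 and 0.17. Relative to that median the RPS genes were at -0.59 and -0.29. A scaling factor shifts all genes of a library alike, so this distance cannot change with the scaling and is no test of it.

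Replicate numbers mark a shared batch only for replicates 1 to 3 of wt and tma46Δ, where deviations correlated at 0.53 to 0.67 (RNA-Seq) and at 0.32 to 0.48 (Ribo-Seq). For the other pairs of equal number r was -0.31 to 0.52. With the replicate number as a block in place of batch, eif2aΔ RNA-Seq gave 1 call, stm1Δ RNA-Seq 1 (RPS6A) and eif2aΔ Ribo-Seq 0, and no other count changed. Without the culture block, wt RO gave 43 calls. Every member had at least 445 reads in every library, and the part of depth in these results was not tested. The 1 shared batch limits stm1Δ.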
